A study of Mus musculus with 14 samples.

Results

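The regions described here are the 20 kb stretches of the mouse genome that held the most H3K27ac summits in macrophages sorted from brain tumours. Chromosomes 1 to 19 and X of the build mm10 were cut into bins of 20 kb from position 1. In each of the 7 H3K27ac libraries the 30000 summits with the highest deposited score were kept, with ties in file order, and counted per bin. A bin was taken as summit-dense when the mean over the 7 libraries was 6 or more kept summits. This gave 658 bins of 131564, which is 0.50% of all bins and 2.70% of the 24399 bins with at least 1 kept summit. The bins resemble super-enhancers in being dense in H3K27ac, but a super-enhancer is usually defined by stitching peaks and ranking their summed signal, which summit lists do not hold. Both treatments entered the choice, so the density of these bins, and their rank by density, is a description and not a test.

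The study asked what an inhibitor of histone deacetylases does to active chromatin in tumour-associated macrophages. All mice were of the immunodeficient NSG strain and carried orthotopic T387 human glioblastoma xenografts in the brain. The first group received pracinostat, a hydroxamate inhibitor of histone deacetylases, and gave 4 H3K27ac and 4 IgG libraries. The second group received the DMSO-containing solvent alone and gave 3 H3K27ac and 3 IgG libraries. Doses were given by mouth, 4 per week over 3 weeks, and began on day 7 after the tumour cells were implanted. The dose is given as 30 mg/kg in the treatment label, the growth protocol and the design, while the text on drug preparation gives 3 mg/kg. In every group the cells were CD11b+ cells sorted at the endpoint and lightly fixed with 0.1% formaldehyde before CUT&Tag, in which an antibody directs a transposase to cut and tag nearby DNA. CD11b is carried by macrophages and microglia but also by monocytes and neutrophils, and NSG mice lack mature lymphocytes. The labels call the samples biological replicates without tying a library to an animal, and a p-value therefore speaks only of the spread among these libraries.

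Acetylation of lysine 27 on histone H3 marks active promoters and enhancers, and deacetylases remove it. In macrophages, dense clusters of acetylated enhancers lie near genes of cell identity, and they are bound by the lineage factor PU.1 together with C/EBP, RUNX and AP-1 factors. Microglia, the resident macrophages of the brain, carry such clusters at genes like Cx3cr1 and Csf1r.

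Upstream sequences of 5 genes are shown, picked from a longer set after the results were seen. Ctsd, Ltc4s and Inpp5d start in 3 of the 12 densest bins, and C1qb and C1qc start in the bin of the complement C1q genes. Each is the 250 bases before a RefSeq gene start (GRCm38.p6, the assembly of mm10), 5′ to 3′ in the direction of the gene. Capitals mark matches to PU.1 GGAAGT, AP-1 TGANTCA, C/EBP TTGCNNAA, RUNX TGTGGT or E-box CACGTG on either strand.
Ctsd, chr7:142387828-142388077, minus strand: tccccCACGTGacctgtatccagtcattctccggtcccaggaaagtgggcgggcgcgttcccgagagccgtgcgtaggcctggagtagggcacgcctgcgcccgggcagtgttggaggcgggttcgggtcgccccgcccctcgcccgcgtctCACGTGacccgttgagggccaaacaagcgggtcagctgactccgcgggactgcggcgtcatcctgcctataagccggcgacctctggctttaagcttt
Ltc4s, chr11:50238533-50238782, minus strand: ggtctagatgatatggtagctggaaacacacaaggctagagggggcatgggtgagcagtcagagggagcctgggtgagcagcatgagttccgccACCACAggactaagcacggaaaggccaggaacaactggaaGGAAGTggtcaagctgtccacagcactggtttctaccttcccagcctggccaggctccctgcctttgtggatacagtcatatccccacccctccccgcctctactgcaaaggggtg
Inpp5d, chr1:87620062-87620311, plus strand: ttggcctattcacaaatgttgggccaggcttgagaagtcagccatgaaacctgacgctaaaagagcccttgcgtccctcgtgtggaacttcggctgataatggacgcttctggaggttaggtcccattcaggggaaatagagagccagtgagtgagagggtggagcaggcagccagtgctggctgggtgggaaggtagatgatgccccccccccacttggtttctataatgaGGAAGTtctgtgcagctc
C1qb, chr4:136886201-136886450, minus strand: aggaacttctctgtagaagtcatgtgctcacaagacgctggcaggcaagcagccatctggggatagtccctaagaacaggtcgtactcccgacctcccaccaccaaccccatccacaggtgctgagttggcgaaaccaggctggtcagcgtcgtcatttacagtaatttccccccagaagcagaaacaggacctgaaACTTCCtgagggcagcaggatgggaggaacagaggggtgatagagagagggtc
C1qc, chr4:136892915-136893164, minus strand: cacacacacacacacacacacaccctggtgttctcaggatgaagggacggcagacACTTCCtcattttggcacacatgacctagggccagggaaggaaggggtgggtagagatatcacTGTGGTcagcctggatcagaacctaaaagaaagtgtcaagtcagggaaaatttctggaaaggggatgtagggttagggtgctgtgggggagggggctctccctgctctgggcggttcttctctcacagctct

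The Ctsd stretch held 2 E-box matches and the Inpp5d stretch 1 PU.1 match. The Ltc4s and C1qc stretches each held a PU.1 and a RUNX match, and the C1qb stretch a PU.1 match. A match is a description of the letters, not a bound site. In the longer set, the stretches before Plekho1, Kcnk13, Zbtb7a and Pgs1 held no match, nor did some before Tcirg1.

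Several microRNAs known from macrophages are encoded within the bins, and their mature sequences from RefSeq (GRCm38.p6) are given with the seed, bases 2 to 8, in capitals.
miR-142a-3p: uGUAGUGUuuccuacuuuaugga
miR-142a-5p: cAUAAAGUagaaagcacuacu
miR-23a-3p: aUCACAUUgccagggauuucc
miR-27a-3p: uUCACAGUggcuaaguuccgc
miR-24-3p: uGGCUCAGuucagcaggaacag
miR-29a-3p: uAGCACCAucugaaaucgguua
miR-29b-3p: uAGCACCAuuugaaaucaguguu
miR-21a-5p: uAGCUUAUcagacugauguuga

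The miR-29a-3p and miR-29b-3p sequences share the seed AGCACCA and come from 1 bin, chr6:31060001-31080000. Of 1005 microRNA hairpins in the table, 41 (4.08%) lay in 31 of the bins, close to the 3.82% of protein-coding genes that reached into a bin. The bin of miR-142a, a microRNA of blood cells, was chr11:87740001-87760000, which also holds an end of Supt4a and of Tspoap1. It had 15, 13, 6 and 12 kept summits in pracinostat libraries, against 10, 9 and 14 in DMSO libraries. The bin of the miR-23a, miR-27a and miR-24-2 cluster, chr8:84200001-84220000, had 10, 14, 15 and 6 in pracinostat libraries, against 12, 6 and 13 in DMSO libraries. In both bins the groups overlapped over most of their range.

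The H3K27ac libraries held 229609 to 289017 summits with pracinostat and 53503 to 291042 with DMSO. DMSO replicate 2 stood apart. It had 53503 summits against 208401 or more in the other 6, and 34928 of them shared its lowest score. To reach 30000 summits, 11425 of these ties were taken in file order, which placed them on chromosomes 1, 10 to 14 and part of 15. On those 7 chromosomes the dense bins averaged 7.59 kept summits in that library, against 7.94 to 9.40 elsewhere. On the other 13 chromosomes they averaged 4.41 there, against 8.57 to 9.79 in the rest. Its list also held almost no peaks divided into several summits. Several comparisons of the 2 groups over the dense bins are therefore given with and without it.

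The bin with the most kept summits was chr2:91080001-91100000, which holds an end of Spi1, the gene of the myeloid lineage factor PU.1. It had 31, 22, 23 and 22 kept summits in pracinostat libraries, against 27, 9 and 33 in DMSO libraries. The DMSO libraries spanned the whole pracinostat range, with DMSO replicate 2 far below all others. The next bin, chr14:25460001-25480000, lay inside Zmiz1, which encodes a transcriptional coactivator. It had 32, 19, 20 and 22 with pracinostat, against 24, 14 and 22 with DMSO. This gene of 209 kb reached into 6 dense bins, the highest number for any protein-coding gene in the table.

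Of the 12 densest bins, 2 lay outside protein-coding genes. The bin chr17:84100001-84120000 stood 63924 bp from Zfp36l2, whose protein promotes mRNA decay, and held 25, 25, 13 and 16 kept summits with pracinostat, against 24, 9 and 26 with DMSO. The bin chr2:167760001-167780000 stood 69569 bp from Cebpb, which encodes a C/EBP factor of myeloid cells. It had 15, 18, 15 and 12 with pracinostat, against 24, 8 and 19 with DMSO. Its neighbour chr2:167740001-167760000 averaged 13 over the 7 libraries, and the bin with an end of Cebpb itself averaged 6.29. The bin 69569 bp away and its neighbour were thus denser in summits than the bin with an end of Cebpb. The bin chr2:167760001-167780000 touches the lncRNA genes Gm32287 and Gm14321, and it is named after Cebpb by distance only.

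Among the rest of the 12, the Ctsd bin (cathepsin D, a lysosomal protease; chr7:142380001-142400000), whose promoter is shown above, had 23, 18, 24 and 30 with pracinostat, against 19, 7 and 16 with DMSO. The lowest pracinostat value lay just under the highest DMSO value. A bin with ends of Tcirg1, a subunit of the proton pump that acidifies lysosomes, and of Aldh3b1 and Ndufs8 (chr19:3900001-3920000) had 19, 16, 22 and 16 with pracinostat, against 14, 9 and 17 with DMSO. The bin of Ltc4s (leukotriene C4 synthase) and Mgat4b (chr11:50220001-50240000) had 20, 18, 17 and 19 with pracinostat, against 18, 13 and 18 with DMSO. Inpp5d, a phosphatase that ends phosphoinositide signals, had 16, 13, 19 and 13 at chr1:87620001-87640000 with pracinostat, against 22, 14 and 20 with DMSO. Lrp1, an endocytic receptor for lipoproteins and dying cells, had 15, 19, 18 and 9 at chr10:127580001-127600000 with pracinostat, against 16, 14 and 21 with DMSO. In each of these bins the groups overlapped. The bins of Lrrc25 and Ssbp4, of Mettl16 and Mnt, and of Plekho1 and Vps45 completed the 12, with means of 18.9, 16.6 and 16.6 kept summits over the 7 libraries.

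**Figure D1:**
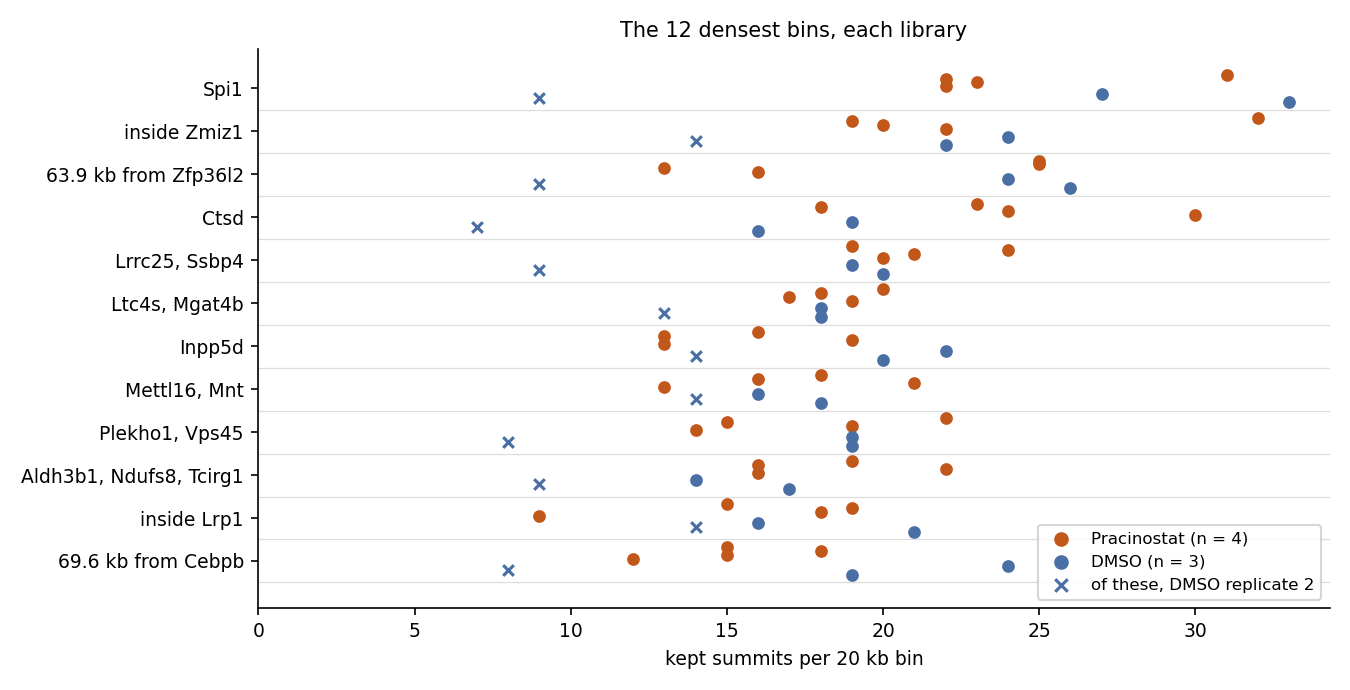
Kept summits per bin (horizontal axis) in each library for the 12 bins with the highest mean, named by the genes with an end in the bin, the gene around it or the nearest gene; points are libraries. DMSO replicate 2, drawn as crosses, is the lowest library in most rows, and the Spi1 row runs from 9 to 33.

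Over all 658 bins the mean number of kept summits had a median of 7.71 and a maximum of 23.9. There were 350 bins with a mean of 6 to under 8, 161 with 8 to under 10, and 147 with 10 or more, of which 19 had 15 or more. At the threshold, 35 bins had a mean of exactly 6, and 42 bins just outside it had 5.86. In pracinostat libraries the median bin had 9, 8, 8 and 8 kept summits, and in DMSO libraries 9, 5 and 8. At least 1 kept summit was present in all 7 libraries in 655 bins, and 6 or more in all 7 in 181. Leaving DMSO replicate 2 aside, 342 bins had 6 or more in each of the other 6 libraries. DMSO replicate 2 was the lowest library in 340 bins (51.7%).

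The dense bins took 21.1, 19.0, 19.8 and 18.2% of the kept summits of the pracinostat libraries, against 20.3, 12.6 and 19.1% in the DMSO libraries. The means were 19.5 ± 1.24% (SD, n = 4) with pracinostat and 17.3 ± 4.16% (n = 3) with DMSO. Without DMSO replicate 2 the DMSO mean was 19.7 ± 0.799% (n = 2). Exact binomial 95% intervals of these shares were narrow, for example 20.7 to 21.6% for pracinostat replicate 1 and 12.2 to 12.9% for DMSO replicate 2. They cover counting error only, and summits of 1 peak are not independent of each other. Among the 1000 highest-scoring summits of a library, 22.6 to 32.5% with pracinostat and 18.7 to 27.3% with DMSO lay in these bins.

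**Figure D2:**
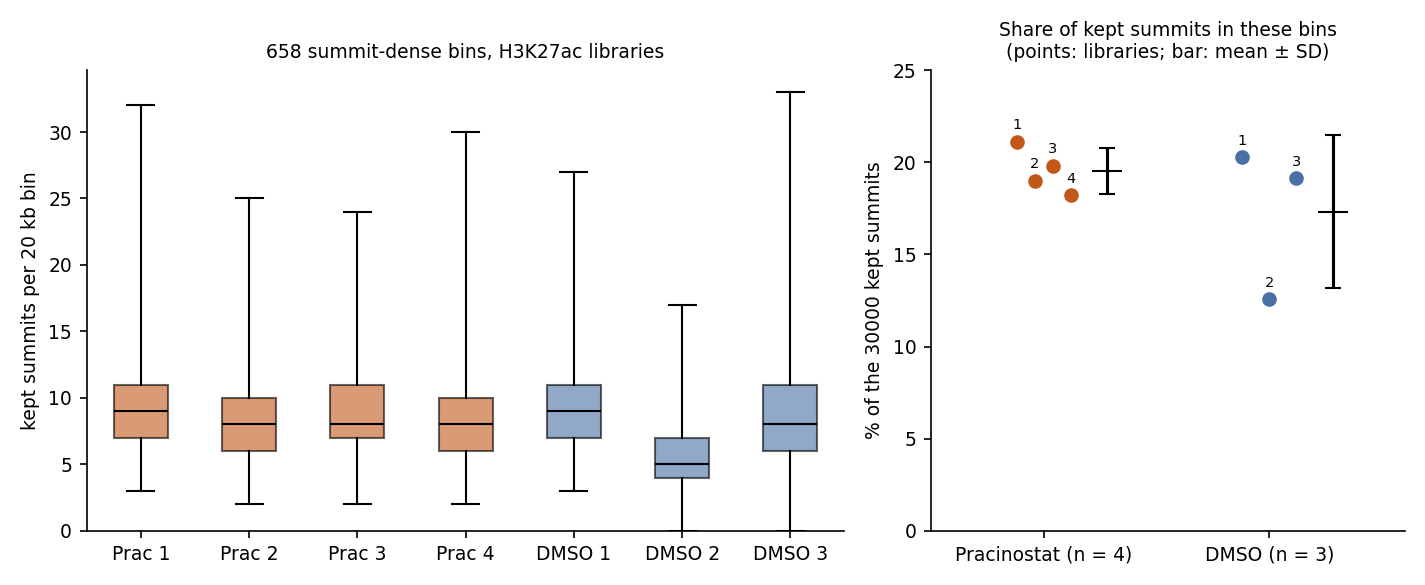
Left, kept summits per dense bin in each H3K27ac library (box, quartiles; line, median; whiskers, lowest and highest of 658 bins). Right, percent of each library's 30000 kept summits that lay in these bins, with mean and SD; DMSO replicate 2 at 12.6% is below the other 6 libraries, which lie between 18.2 and 21.1%.

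Density carried over to libraries that had no part in the choice. When bins were chosen on the 3 DMSO libraries alone, 611 qualified, and their median was 9, 8, 8 and 7 kept summits in the 4 pracinostat libraries, against a mean of 0.228 over all bins. When they were chosen on the 4 pracinostat libraries, 793 qualified, and their median was 8, 4 and 7 in the DMSO libraries. The 2 lists shared 501 bins, which is 63.2% of the pracinostat list and 82.0% of the DMSO list. DMSO replicate 2 entered the DMSO list, and no DMSO list was made without it. That library had 6 or more kept summits in 303 dense bins, against 591 and 545 for DMSO replicates 1 and 3.

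The bins were unevenly spread over the genome. Chromosome 11 held 81 of them, or 1.33% of its bins, and chromosome 3 held 14, or 0.175%. None of the 8534 bins of chromosome X qualified. That chromosome held only 227 to 318 kept summits in pracinostat libraries and 213 to 328 in DMSO libraries, under 1.1% of a list. Neighbouring bins formed 542 runs, of which 447 were single bins, 80 were pairs, 10 were of 3 bins, 4 of 4 and 1 of 5. The run of 5 bins, chr10:127580001-127680000, spans Lrp1, Nab2, Nemp1 and Stat6, the last encoding the factor that carries interleukin-4 signals. It held 52, 53, 50 and 41 kept summits with pracinostat, against 53, 52 and 53 with DMSO. Among the runs of 4, the bins inside Zmiz1 (chr14:25460001-25540000) held 67, 48, 36 and 48 with pracinostat, against 51, 50 and 49 with DMSO. Pracinostat replicate 1 was the highest library there and pracinostat replicate 3 the lowest. A run at Cerk and Tbc1d22a (chr15:86160001-86240000) held 42, 38, 39 and 38 with pracinostat, against 44, 15 and 33 with DMSO.

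Most of the summits in dense bins lay within genes and away from gene ends. Within 1 kb of either end of a protein-coding gene were 20.3 ± 0.667% of them in pracinostat libraries (SD, n = 4) and 20.3 ± 1.18% in DMSO libraries (n = 3). Of the kept summits outside these bins, 39.0 ± 3.10% with pracinostat and 35.9 ± 8.68% with DMSO lay that close to a gene end. The share was lower in the dense bins in each of the 7 libraries, from 19.1% against 26.4% in DMSO replicate 2 to 21.2% against 43.6% in pracinostat replicate 2. Inside genes and beyond 1 kb of an end were 62.8 ± 0.907% with pracinostat and 62.9 ± 2.14% with DMSO, against 42.4 ± 2.99 and 44.6 ± 6.0% outside the dense bins. No test was made of these differences, since the same summits chose the bins.

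**Figure D3:**
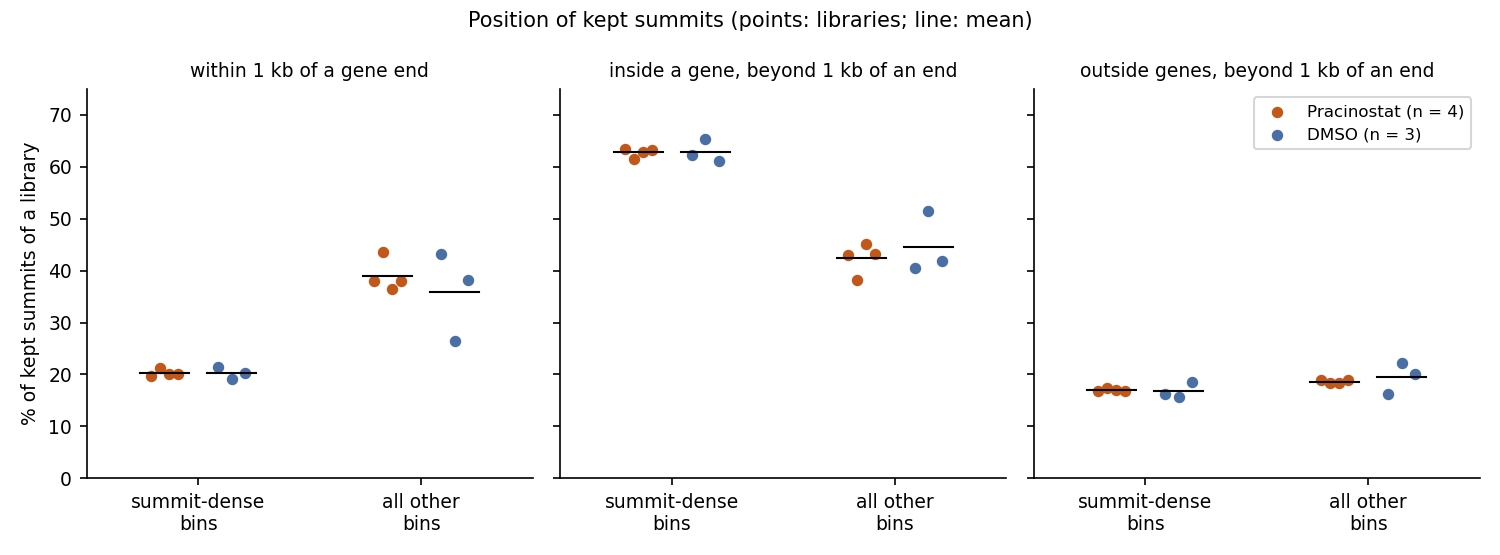
Percent of the kept summits of each H3K27ac library (points; line, mean) by position relative to protein-coding genes, in the dense bins and in all other bins. In the dense bins 19.1 to 21.4% lie within 1 kb of a gene end, against 26.4 to 43.6% elsewhere.

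By gene content, 421 bins (64.0%) held an end of a protein-coding gene, 192 (29.2%) lay inside genes without an end, and 45 (6.84%) touched no protein-coding gene. Over all bins of the genome these shares were 20.7, 27.9 and 51.3%. Of the bins with a mean of 3 to under 6 kept summits, 69.4% held a gene end and 21.2% lay inside genes without one, and 67.9% of those with a mean of 1 to under 3 held a gene end. The 45 bins were a median of 28582 bp from the nearest protein-coding gene, and 28 of them touched a lncRNA gene. One held Malat1, an abundant nuclear lncRNA, with 13, 11, 8 and 10 kept summits with pracinostat, against 13, 6 and 12 with DMSO. Another lay beside Btg2, an antiproliferative gene, and had 15, 10, 14 and 13 with pracinostat, against 8, 4 and 9 with DMSO. It was named after its values were seen. Every pracinostat library lay above every DMSO library in 3.65% of dense bins, against 1.61% of all bins tested below. Of 21631 genes, 702 (3.25%) had an end in a dense bin, 827 (3.82%) reached into one, and 96 reached into 2 or more. After Zmiz1 came Irak2, a kinase of Toll-like receptor signalling, with 4 bins.

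Peaks in the dense bins were more often divided into several summits. In pracinostat libraries 81.1 ± 3.18% of kept summits in these bins came from such peaks, against 58.3 ± 4.95% outside them (SD, n = 4). In DMSO replicates 1 and 3 the shares were 76.9 and 77.1%, against 55.3 and 50.9% outside. In DMSO replicate 2 they were 0.531% and 0.255%. The threshold counts summits, so a peak that is divided adds more than 1. Counting each peak once left 140 bins with a mean of 6 or more, all of them among the 658.

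Promoters in the dense bins were rich in G and C. RefSeq gave 632 promoters of 484 genes there, each from 250 bases before to 50 after a gene start. Their median GC content was 61.7%, against 61.0% for promoters in bins with a mean of 1 to under 6 and 56.7% for all 21045 promoters. CpG-rich promoters made up 59.8%, against 69.8% and 45.6%. The PU.1 letters GGAAGT were present in 31.2% of them, against 30.0% and 25%. The AP-1 letters TGANTCA were in 6.80%, against 4.62 and 7.04%. For C/EBP TTGCNNAA the shares were 9.34, 8.12 and 10.3%, for RUNX TGTGGT 14.4, 12.2 and 14.7%, and for E-box CACGTG 8.39, 10.6 and 7.91%, in the same order. Both strands were searched, and overlapping matches to different motifs were counted for each. No test was made of these shares.

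Of 20 gene lists, 13 had at least 1 gene that reached into a dense bin. The lists were chosen with earlier results of these data known, so their counts describe the bins and support nothing further. Beside the 3.82% of all protein-coding genes that reached into a dense bin, 9 of 25 transcription factors of the macrophage lineage did so. Of the 25, 6 had an end in a dense bin, against 3.25% of all protein-coding genes. Besides Spi1, the 9 included Fli1 (an ETS factor, 12.7 kept summits on average in its densest bin) and Tfeb (a regulator of lysosomal genes, 12.0). Irf5 (11.6), Rxra (11.1), Zeb2 (6.86), Cebpb (6.29) and Irf8 (6) were also among them. Irf8 lay on the threshold, with 6, 8, 6 and 5 kept summits with pracinostat, against 7, 6 and 4 with DMSO.

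Microglia markers reached into dense bins in 10 of 21 cases, and of these C1qa, C1qb and C1qc share a single bin. Those that did not included P2ry12, Sall1, Siglech, Gpr34, Olfml3, Fcrls, P2ry13, Sparc and Slc2a5. The fractalkine receptor Cx3cr1 had 10, 9, 12 and 10 kept summits in its bin with pracinostat, against 10, 4 and 12 with DMSO. Csf1r, the receptor of the growth factor on which microglia depend, had 9, 11, 8 and 11 with pracinostat, against 9, 6 and 9 with DMSO. Trem2, a lipid receptor, had 8, 6, 6 and 9 with pracinostat, against 10, 4 and 8 with DMSO. The groups overlapped at each of these. Of the 10 markers used to check the cell type, 7 reached into a dense bin, among them Spi1, C1qa, Cx3cr1, Csf1r, Tmem119 and Tyrobp, while Itgam, which encodes CD11b, P2ry12 and Siglech did not.

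Genes of phagocytosis made up further lists. Of 25 phagocytic receptors and bridging molecules, 6 reached into a dense bin: Lrp1 (16.0), Stab1 (10.1), Itgb2 (10.1), Itgb5 (9.71), Trem2 (7.29) and Tyrobp (6.86), with the mean of kept summits in the densest bin in parentheses. Of 25 genes of Rac activation and the phagocytic cup, 8 did so, but only 2 had an end in a dense bin, against 3.25% of all protein-coding genes. The others of the 8 spanned one. Among the 8 were Inpp5d (16.7), Vav1 (an activator of Rac, 11), Myo9b (9.86), Coro1a (an actin-binding protein, 8.43) and the kinase gene Syk (7.29). The Syk bin held 7 kept summits in each pracinostat library, against 10, 7 and 6 with DMSO. The DMSO mean of the Coro1a bin lay under the threshold of 6. This bin had 8, 14, 12 and 9 with pracinostat, against 7, 5 and 4 with DMSO, without overlap. Such a separation occurred in 24 dense bins (3.65%), against 1.61% of all bins tested below. No dense bin had an adjusted p under 0.635 in limma. The bin of Sirpa, an inhibitory receptor of phagocytosis, had 15, 12, 13 and 8 with pracinostat, against 18, 7 and 16 with DMSO.

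Among lipid-associated macrophage genes 4 of 21 reached into a bin (Ctsd, Ctsb, Cd9 and Abca1), and among AP-1 and stress factors 5 of 22 (Junb, Dusp1, Zfp36, Ier2 and Nfe2l2). Of 20 genes cited as super-enhancer targets in macrophages, 11 did, and 7 had an end in one. For AP-1 and stress factors 4 of 22 had an end in one. Ribosomal protein genes gave 3 of 20, NF-kB genes 2 of 21 (Tnf and Nfkbie), chemokine genes 2 of 18, MHC genes 2 of 16 (Tapbp and H2-DMa), and deacetylases and acetyltransferases 1 of 24 (Ncoa3). None of 12 monocyte, 15 neutrophil, 10 dendritic cell, 15 lymphocyte, 14 neuron and astrocyte or 12 endothelial and mural markers reached into one, and none of 18 interferon response genes. Of 12 oligodendrocyte genes 1 did, Mbp, the myelin basic protein gene. Set beside the 3.82% of all protein-coding genes, lists this short can hold none or 1 without differing from other genes. A bin inside Mbp had 10, 10, 5 and 9 kept summits with pracinostat, against 8, 1 and 8 with DMSO.

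**Figure D4:**
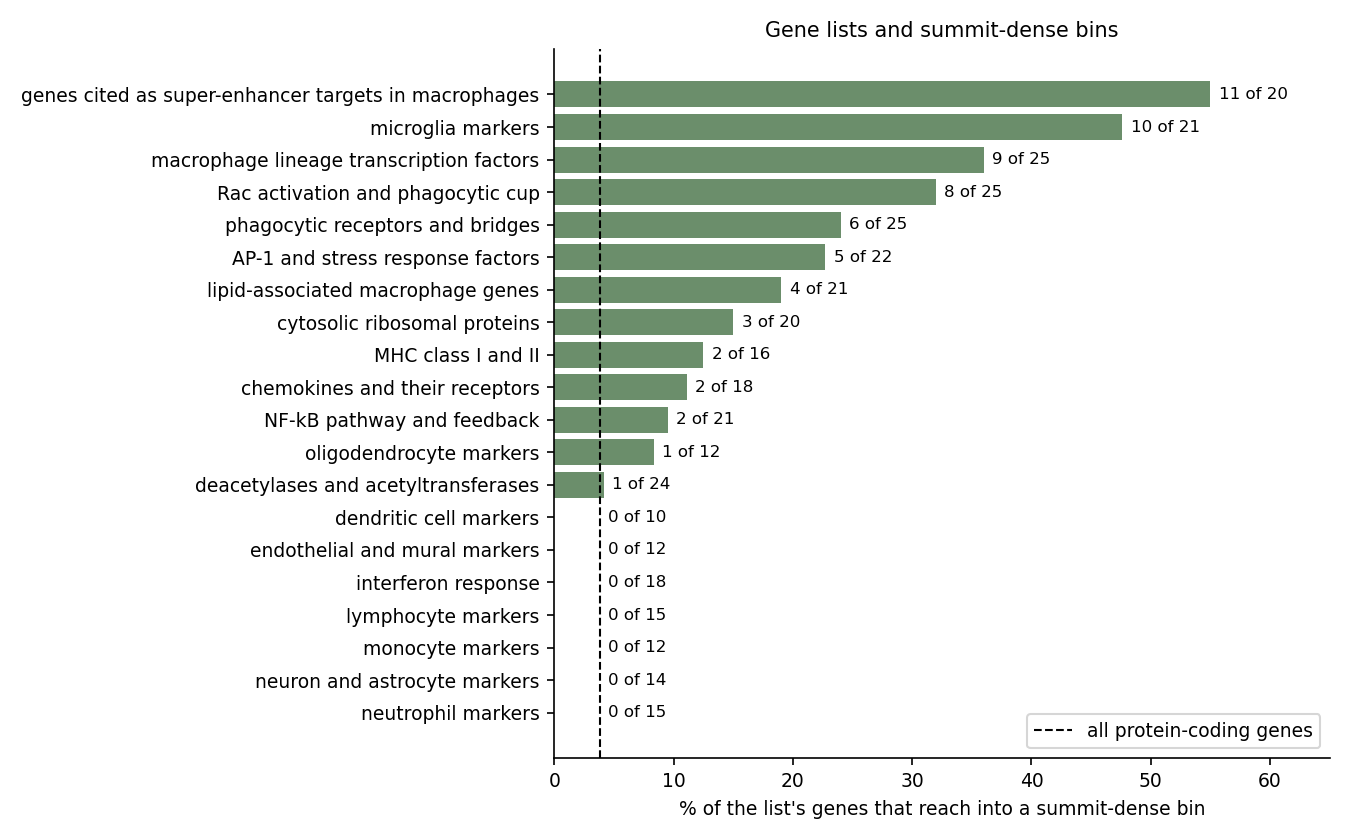
Percent of the genes of each list that reach into a dense bin, with the counts at the bars; the dashed line is the 3.82% of all 21631 protein-coding genes. Lists of macrophage genes stand at the top, and 7 lists have no gene in a dense bin.

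The IgG libraries, which give the background of the assay, had few summits in these bins. The bins held 1.21, 0.520, 0.790 and 0.820% of the IgG summits of pracinostat samples, against 0.518, 0.444 and 0.559% for DMSO samples. The bins are 0.50% of all bins. The means were 0.834 ± 0.282% (n = 4) and 0.507 ± 0.0587% (n = 3). The 31 summits behind the highest share, out of 2572, have an exact 95% interval of 0.820 to 1.71%. With H3K27ac antibody the same bins held 5.34 to 7.22% of all summits of pracinostat libraries and 5.02 to 10.2% of those of DMSO libraries. In 383 of the 658 bins (58.2%) no IgG library had a summit, against 63.6% of the bins with a mean of 3 to under 6 kept summits and 64.8% of those with a mean of 1 to under 3.

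There were 2 dense bins with a summit in 4 of the 7 IgG libraries. One of them, chr17:39840001-39860000, had 7 IgG summits and touches no protein-coding gene. RefSeq places there the pseudogene Rn18s-rs5, related to 18S ribosomal RNA, and the lncRNA AY036118. It had 9, 15, 17 and 5 kept H3K27ac summits with pracinostat, against 13, 7 and 6 with DMSO. Its kept summits spanned a median of 5.17 kb, against 12.2 kb for the median dense bin. The other, chr5:115520001-115540000, lies inside Pxn, an adhesion gene, and had 10, 13, 13 and 12 with pracinostat, against 12, 5 and 7 with DMSO. Bins at Cmklr1 and in Slc45a4 followed with 3 IgG libraries each, and a bin in Abr had 3 IgG summits from 2 libraries.

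Whether pracinostat changed the density of these bins was tested across all 9237 bins with a mean of at least 1 kept summit, with limma on log2(kept summits + 1). None of the 658 dense bins passed a Benjamini-Hochberg adjusted p of 0.05, and 1 bin of all 9237 did (0.0108%). The lowest adjusted p of a dense bin was 0.635. In sorted bulk cells, a change in the make-up of the sorted population and a change within each cell cannot be told apart. Without adjustment, 52 dense bins had a p under 0.05 (7.90%, against 5.75% of all bins tested), 48 higher (7.29%, against 4.18%) and 4 lower (0.608%, against 1.57%) with pracinostat. The log2 differences ran from -1.07 to 1.28, with a median SE of 0.33.

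The dense bins leaned towards pracinostat, but the lean was gone without DMSO replicate 2 and turned with full lists and with each peak counted once. The counts that chose the dense bins, from 4 pracinostat and 3 DMSO libraries, also give these differences. Shares of dense bins set against all bins tested are therefore a description and not a test. The difference was above 0 in 480 bins (72.9%), against 59.3% of all bins tested, with medians of 0.20 and 0.10. Without DMSO replicate 2 it was above 0 in 322 bins (48.9%), against 51.0% of all, and 37 bins had an unadjusted p under 0.05, of which 21 were higher (3.19%, against 3.05% of all bins) and 16 lower (2.43%, against 1.79%). With full lists per 100000 summits it was above 0 in 128 bins (19.5%), against 44.2% of all, and the medians were -0.17 and -0.04. In that setting no dense bin had an unadjusted p under 0.05 and a higher value (against 2.58% of all bins), and 3 had one with a lower value (0.456%, against 1.96%). With full lists and without DMSO replicate 2 it was above 0 in 415 bins (63.1%), against 58.7% of all. With each divided peak counted once it was above 0 in 273 bins (41.5%), against 46.9% of all, and the median of the dense bins was -0.07. There, 9 dense bins had an unadjusted p under 0.05 and a higher value (1.37%, against 2.57% of all bins), and 33 had one with a lower value (5.02%, against 2.93%). DMSO replicate 2 had 3760 distinct kept peaks in the dense bins, against 3045 to 3310 in the other 6 libraries. The count of distinct peaks was not compared without that library. Of the full lists, DMSO replicate 2 had 10.2% of its summits in the dense bins, against 5.02 to 7.22% in the other 6 libraries. On the 7 chromosomes where ties of DMSO replicate 2 were kept, 144 of 273 dense bins (52.7%) had a difference above 0. On the other chromosomes 336 of 385 (87.3%) did, including 42 of the 48 bins with an unadjusted p under 0.05 and a higher value. With ties taken at random, the difference was above 0 in 490 dense bins (74.5%), against 59.4% of all. With 15000 summits per library it was above 0 in 400 (60.8%), against 52.0% of all. The direction of the dense bins as a whole was therefore not the same across these settings.

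In 24 dense bins (3.65%, against 1.61% of all bins tested) every pracinostat library lay above every DMSO library, and in 5 (0.760%, against 0.617%) every one lay below. Set against DMSO replicates 1 and 3 only, 28 bins were above (4.26%, against 2.68%) and 33 below (5.02%, against 3.06%).

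**Figure D5:**
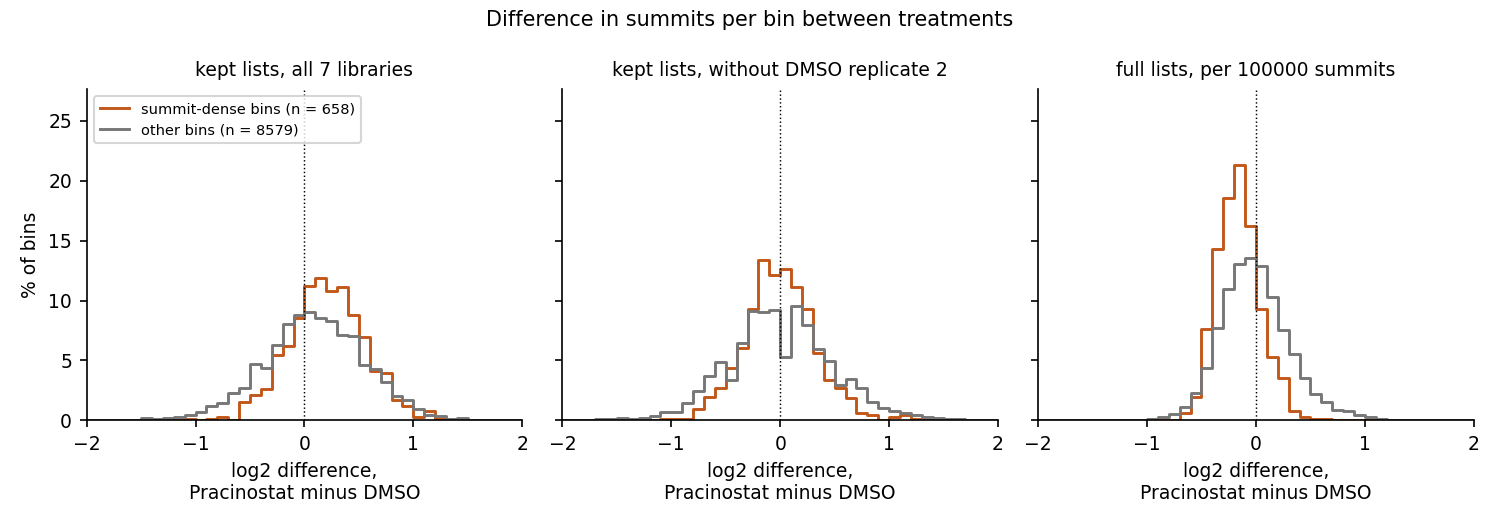
Distribution of the log2 difference in summits per bin, pracinostat minus DMSO, for the 658 dense bins and the other 8579 bins tested; vertical axis, percent of bins. The median of the dense bins is 0.20 with all 7 libraries, close to 0 without DMSO replicate 2 and -0.17 with full lists.

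Of the dense bins that were higher with pracinostat, 5 had the smallest unadjusted p, and each had an adjusted p of 0.635 with limma; 4 of them are given here. The bin of C1qa, C1qb and C1qc (chr4:136880001-136900000), which encode the 3 chains of the complement opsonin C1q, had 11, 12, 15 and 13 kept summits with pracinostat, against 11, 5 and 2 with DMSO. The groups met at 11, and the log2 difference was 1.19 ± 0.36 (SE). It was 0.69 without DMSO replicate 3 and 1.69 without DMSO replicate 1, 1.19 without DMSO replicate 2, 0.59 with each peak counted once and 0.14 with full lists. The bin of Tmem63a, a mechanically gated channel (chr1:180940001-180960000), had 11, 6, 9 and 8 with pracinostat, against 3, 4 and 3 with DMSO, a difference of 1.11 ± 0.32. It was 1.22 without DMSO replicate 2, 0.28 with each peak counted once and 0.13 with full lists. The lowest Tmem63a difference over all alternatives was 0.08. The bin in Mgrn1, a ubiquitin ligase gene (chr16:4900001-4920000), had 9, 11, 7 and 6 with pracinostat, against 5, 3 and 2 with DMSO. Its difference was 1.12 ± 0.34, 1.09 without DMSO replicate 2 and -0.13 with full lists. The bin of Kcnk13, a potassium channel of microglia (chr12:99960001-99980000), had 7, 8, 9 and 9 with pracinostat, against 5, 4 and 2 with DMSO. Its difference of 1.04 was 1.12 without DMSO replicate 2, 0.25 with each peak counted once and 0.22 with full lists. In the bins of Tmem63a, Mgrn1 and Kcnk13 the groups did not overlap. Their DMSO means (3.33, 3.33 and 3.67) lay under the threshold of 6. They passed it through their pracinostat means of 8.5, 8.25 and 8.25. The bins were also picked for a small p on the same counts, so the lack of overlap adds no support.

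The 5 bins with the smallest p among those lower with pracinostat had adjusted p-values of 0.657 to 0.844 with limma. The bin in Stk10, a kinase gene of blood cells (chr11:32540001-32560000), had 7, 4, 2 and 6 with pracinostat, against 9, 11 and 11 with DMSO, a difference of -1.07 ± 0.35. The bin of Zbtb7a and Map2k2 (chr10:81120001-81140000) had 5, 5, 8 and 3 with pracinostat, against 9, 10 and 10 with DMSO. The Stat6 bin of the run of 5 described above (chr10:127640001-127660000) had 6, 5, 5 and 6 with pracinostat, against 8, 9 and 9 with DMSO, a difference of -0.58 ± 0.31. In these 3 bins the groups did not overlap, which adds no support, since the bins were picked for a small p on the same counts. Their pracinostat means (4.75, 5.25 and 5.5) lay under the threshold of 6. They passed it through their DMSO means of 10.3, 9.67 and 8.67. A bin in Lrrfip1 (chr1:91080001-91100000) had 6, 5, 2 and 5 with pracinostat, against 8, 6 and 11 with DMSO, and the bin of Pgs1 (chr11:117980001-118000000) had 7, 3, 9 and 5, against 10, 13 and 8. All 5 lie on chromosomes whose ties were kept for DMSO replicate 2. Without DMSO replicate 2 the differences were -1.02 for Stk10, -0.81 for Zbtb7a, -0.55 for Stat6, -0.99 for Lrrfip1 and -0.59 for Pgs1. With full lists they were -0.51 for Stk10, -0.38 for Zbtb7a, -0.28 for Stat6, -0.22 for Lrrfip1 and -0.67 for Pgs1. With full lists and without DMSO replicate 2 they were closer to 0, at -0.23, -0.05, 0.07, -0.13 and -0.24 in the same order. Without pracinostat replicate 3 the Lrrfip1 difference was -0.53.

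Among the 12 densest bins the largest difference was at Ctsd, 0.80 ± 0.31 with an adjusted p of 0.844 in limma. It was 0.40 without DMSO replicate 2 and -0.02 with full lists. The lowest was at Inpp5d, -0.27 ± 0.28 with an adjusted p of 0.908, and -0.45 without DMSO replicate 2. At Spi1 it was 0.25 ± 0.33 with an adjusted p of 0.933, and -0.29 without DMSO replicate 2. None of the 12 had an adjusted p under 0.844.

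The strength of the highest summit in a bin was compared as a second measure. Each bin was given the within-library percentile of its highest summit, turned into a normal score. Over the dense bins the mean percentile had a median of 98.3 and a minimum of 87.0, and 183 bins reached 99 or more. The 3 highest were a bin in Slc6a6, the taurine transporter gene (chr6:91700001-91720000), the bin 69569 bp from Cebpb, and the bin of Dusp27 and Gpa33 (chr1:166120001-166140000). Their means were 99.94, 99.94 and 99.93. Their mean counts were 10.3, 15.9 and 6, so the strongest summits were not always in the most crowded bins. In limma 0 of 658 dense bins passed the adjusted threshold, against 1 of all 9237 (0.0108%), and the lowest adjusted p of a dense bin was 0.863. At an unadjusted p under 0.05 there were 22 (3.34%, against 5.56% of all bins), 19 higher (2.89%, against 2.65%) and 3 lower (0.456%, against 2.91%) with pracinostat. Without DMSO replicate 2 there were 14 (2.13%, against 4.50% of all bins), 8 higher (1.22%, against 2.22%) and 6 lower (0.912%, against 2.28%). The difference was above 0 in 389 bins (59.1%) with all 7 libraries, against 50.3% of all bins, and in 362 (55.0%) without DMSO replicate 2, against 49.6%. Both measures are relative to the other sites of the same library. A shift in acetylation shared by all sites would leave them as they are.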

How the data were processed

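CUT&Tag for H3K27ac (7 libraries) and IgG (7 libraries) was deposited as a separate list of peak summits for each library. The submitters' processing notes name the build mm10 and the tools HOMER, DESeq2, MACS2 (2.2.9.1) and Bowtie2. What each tool did, the threshold for a peak and the number of reads were not given in the sources used here. The deposited score of a summit, as the authors left it, is a −log10 significance value. The files do not say if it comes from p or from q, and it served only to rank summits within a library.

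Summits on chromosomes 1 to 19 and X were counted in 20 kb bins with Python 3.11 and pandas, after each H3K27ac list was limited to 30000 summits. Bins with a mean of at least 1 kept summit were compared between pracinostat and DMSO with limma 3.58.1 in R 4.3.3 (trended, robust variance; log2(kept + 1); no covariate; Benjamini-Hochberg adjustment). The step was tested on simulated counts. Genes came from RefSeq (GRCm38.p6), whose gene table gives both ends without strand. Gene starts were known for 17274 of 21631 protein-coding genes, and none on chromosome 18.

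The bins, gene lists, motifs and tests were chosen with earlier results of these data known. Named bins were the 12 densest, the 5 with the smallest p per direction, the 3 with the highest summit percentile, up to 5 with the most IgG libraries, the 3 longest runs, and bins reached by list genes; Malat1, Btg2 and Sirpa were named after their values were seen. The 5 promoters and the microRNAs shown were picked in the same way from a longer set. Alternatives were other list lengths, tie handling, pseudocounts, filters, scalings, bin grids and variance models, leaving out each library, and the replicate number as a block. Some items that these rules name are not reported here.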

Additional observations from a re-analysis of the deposited data

Results flagged for a closer look

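Of 47 sets of 4 pracinostat values examined, 2 held a value that the rule flagged as far from the other 3. Chance alone flags about 1 in 20 sets of independent, continuous values. These sets share libraries and many hold whole counts, so that rate is only a rough guide. In the bin of Spi1, pracinostat replicate 1 had 31 kept summits, against 22, 23 and 22 in the other pracinostat libraries, and 27, 9 and 33 in the DMSO libraries. The median number of kept summits per dense bin was 9 in pracinostat replicate 1 and 8 in each of the other 3 pracinostat libraries. With 3 equal values the rule flags a step of any size, so this flag carries no weight. That library also had the highest share of kept summits in the dense bins (21.1%) and the highest share from divided peaks (84.8% in these bins). Their part in the Spi1 value was not tested.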

How the results depend on the processing

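No dense bin passed the adjusted threshold in the comparison of kept summits under 19 alternatives, or in that of the highest summit under 10. The number with an unadjusted p under 0.05 moved more. For kept summits it was 52, and it became 31 with plain variance, 3 with full lists and 5 with full lists without DMSO replicate 2, an alternative chosen after seeing the data. It was 84 among bins moved by 10 kb and 88 among 10 kb bins, grids that lay more bins over the same regions. Leaving out 1 library at a time gave 30 to 109 for kept summits, the highest without DMSO replicate 1, and 14 to 34 for the highest summit. The number of dense bins was 122 with 15000 summits per library, 1005 and 308 at thresholds of 5 and 8, 140 with each peak counted once, and 641 to 748 with 1 library left out. The share of kept summits in the bins, pracinostat minus DMSO, was 2.21 percentage points, -1.15 with full lists, and -0.17 to 3.68 with 1 library left out. The share of IgG summits differed by 0.33 percentage points, and by 0.20 to 0.43 with 1 library left out. Of 204 alternative values for 12 named bins, 194 kept their direction. Those that turned were Spi1 (-0.46 with full lists, -0.37 with distinct peaks, -0.29 without DMSO replicate 2, up to 0.59 without DMSO replicate 3, and -0.10 with full lists without DMSO replicate 2), Ctsd (-0.022 with full lists, -0.11 with distinct peaks), Inpp5d (0.16 with 15000 summits), Mgrn1 (-0.13 with full lists, -0.12 also without DMSO replicate 2) and Stat6 (0.068 with full lists without DMSO replicate 2). The causes were not tested. Replicate numbers are shared between the groups, but the deviations of same-numbered libraries correlated at -0.02, 0.04 and -0.04, so the numbers were not taken as pairs; with the number as a replicate block 0 dense bins were called and 52 had an unadjusted p under 0.05 for kept summits, and 0 and 15 for the highest summit. Read depth is unknown, and a dense bin's difference had a median SE of 0.33 on the log2 scale.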
